A study of Mus musculus with 6 samples.

Results

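The acute-phase protein genes described here are Saa1, Saa2, Saa3, Lcn2, Hp, Orm1, Orm2, Itih4, Serpina3n and Cp, 10 of the 33919 genes in the deposited table. They were found by gene name, and the set had been selected on the measured differences between the 2 groups of libraries, so their differences are given as a description, without a test. Poly(A) RNA was sequenced from 6 libraries labelled as mouse aorta. Of these, 3 are labelled genotype WT and 3 genotype KO, and both groups carry the treatment label Ang II, the peptide hormone angiotensin II, which raises blood pressure and remodels the vessel wall. No untreated group is part of the comparison. The series title names endothelial OTUD1, a deubiquitinating enzyme. The sources used here do not give the allele behind the label KO, the cells it acts in, the strain, sex and age of the mice, or the dose and duration of Ang II. Although the design text mentions different mice, no label ties a library to an animal. The p-values therefore reflect variation among these libraries, which may be technical. The tissue label is aorta, but the RNA protocol mentions an adipose type.

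Acute-phase proteins are secreted proteins whose plasma levels shift during inflammation, infection and tissue injury. The liver is their main source. In hepatocytes, interleukin-6 (IL-6) signals through gp130, JAK kinases and STAT3, and interleukin-1 (IL-1) and TNF signal through NF-kB, and both routes meet C/EBP transcription factors at the promoters of these genes. Positive acute-phase proteins rise and negative ones, such as albumin and transthyretin, fall. Some of the genes are also transcribed outside the liver: Saa3 and Lcn2 in macrophages, adipocytes and epithelia, Hp and Orm1 in adipose tissue, and Serpina3n in several stromal cells.

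Each library held 62.3 M to 71.5 M counts (M, megacounts), and 27.6 M to 33.8 M remained once genes of the mitochondrial chromosome were left out. Otud1, the gene named by the study, had 593, 699 and 615 counts in the WT-labelled libraries and 1033, 1141 and 1223 in the KO-labelled ones. Its log2 difference was 0.63 (SE 0.12), and edgeR's quasi-likelihood test with Benjamini-Hochberg adjustment gave an adjusted p of 0.0039. Otud1 was therefore higher under the label KO. The allele and the cells it acts in are not given, and the reason was not tested. The groups are named by their labels throughout. Smooth muscle markers, which define the aortic media, had a summed FPKM of 157.0 to 172.6 in the WT-labelled libraries and 49.9 to 54.8 in the KO-labelled ones. Skeletal muscle markers stood far above them, at 6067 to 6677 and 9305 to 10300, and adipocyte markers at 1160 to 1278 and 1283 to 1401. In bulk RNA of this kind, fewer cells of a type and less RNA per cell cannot be told apart.

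The 10 genes include members of 2 clusters of related genes. Saa1, Saa2, Saa3 and their relative Saa4 lie within 42.3 kb of chromosome 7, and Orm1, Orm2 and their relative Orm3 within 21.3 kb of chromosome 4 (GRCm38). The bases just upstream of 5 of these genes are shown because neighbouring copies had unlike differences in the libraries: Saa2 and Saa3 beside Saa1, and Orm2 beside Orm3. They are RefSeq promoter windows on GRCm38.p6, written 5′ to 3′ on the gene's strand, and capitals mark matches to TTNNGNAA on either strand, a core of the C/EBP motif. For Saa2 and Saa3 the last 43 and 24 bases of the 250-base window were left out, since they overlap the gene as the deposited table gives it.
Saa1 (chr7:46742981-46743230, minus strand): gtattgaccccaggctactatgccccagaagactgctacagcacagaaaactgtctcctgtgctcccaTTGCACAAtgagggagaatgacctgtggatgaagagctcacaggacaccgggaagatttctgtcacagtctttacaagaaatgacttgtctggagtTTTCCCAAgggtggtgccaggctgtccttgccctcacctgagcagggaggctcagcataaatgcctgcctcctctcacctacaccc
Saa2 (chr7:46751583-46751789, plus strand): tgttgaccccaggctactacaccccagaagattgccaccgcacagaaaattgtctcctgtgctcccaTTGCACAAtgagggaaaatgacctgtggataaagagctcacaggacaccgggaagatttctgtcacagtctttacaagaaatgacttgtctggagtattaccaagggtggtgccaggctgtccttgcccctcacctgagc
Saa3 (chr7:46715701-46715926, minus strand): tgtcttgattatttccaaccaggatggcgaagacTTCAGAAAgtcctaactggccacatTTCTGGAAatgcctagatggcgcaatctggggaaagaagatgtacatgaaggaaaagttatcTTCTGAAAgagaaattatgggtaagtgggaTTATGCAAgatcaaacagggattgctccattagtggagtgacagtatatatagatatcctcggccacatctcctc
Orm2 (chr4:63362199-63362448, plus strand): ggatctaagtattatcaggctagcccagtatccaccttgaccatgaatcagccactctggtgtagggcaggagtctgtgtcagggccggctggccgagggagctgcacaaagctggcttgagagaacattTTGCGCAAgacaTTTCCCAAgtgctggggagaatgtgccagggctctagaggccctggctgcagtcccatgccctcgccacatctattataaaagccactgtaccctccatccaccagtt
Orm3 (chr4:63355908-63356157, plus strand): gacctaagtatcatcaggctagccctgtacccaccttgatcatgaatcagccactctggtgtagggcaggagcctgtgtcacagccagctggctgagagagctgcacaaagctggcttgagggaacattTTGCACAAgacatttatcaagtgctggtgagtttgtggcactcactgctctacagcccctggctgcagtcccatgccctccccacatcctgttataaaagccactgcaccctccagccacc

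The Saa1 and Saa2 windows were identical at 238 of 249 aligned bases (95.6%). Both hold TTGCACAA, which begins 182 bases before the RefSeq start in Saa1 and 183 in Saa2, and Saa1 alone of the pair holds a second match, TTTCCCAA. The Saa3 window aligned with that of Saa1 at 75.1% identity over 205 bases, which is no more than Saa1 with the unrelated Orm2 window (77.6% over 205 bases), and it holds 4 matches of its own. The Orm2 and Orm3 windows were identical at 219 of 245 aligned bases (89.4%). Orm2 holds TTGCGCAA and TTTCCCAA, while Orm3 holds TTGCACAA as its 1 match.

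RefSeq windows were matched for 8 of the 10 genes, all except Hp and Orm1, with 2 windows for Cp. Each was searched on both strands for 4 short motifs. TTNNGNAA was present upstream of 7 of the 8 genes, against 36.8% of all 32851 windows of 250 bases. The STAT motif TTCNNNGAA was present in that of Itih4 alone, against 7.02% of all windows. The IL-6 response element CTGGGA was present for Itih4 and Cp (27% of all windows), and the NF-kB motif, GGGA and CC with any 4 bases between them, for Serpina3n and Cp (17.6% of all windows). The NF-kB match of Cp lay inside the gene as the deposited table gives it. The shares count single windows, while Cp had 2. A match describes letters in the window and is not evidence of a bound factor, and the motifs can overlap each other.

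Hp was the most abundant of the 10 genes in every library. FPKM, a count of fragments per gene length and per library size, allows levels to be compared between genes. By mean FPKM in the WT-labelled libraries, the order was Hp, Orm1, Serpina3n, Cp, Itih4, Saa1, Saa3, Lcn2, Saa2 and Orm2. In the KO-labelled libraries it was Hp, Orm1, Saa3, Serpina3n, Itih4, Lcn2, Orm2, Saa2, Saa1 and Cp. Neighbours whose library values overlapped were Cp with Itih4, Saa1 with Saa3, and Saa3 with Lcn2 in the first group. In the second group they were Serpina3n with Itih4, Orm2 with Saa2, and Saa1 with Cp. Saa3 moved from rank 7 to rank 3, whereas Cp moved from rank 4 to rank 10. Among all genes of the table, Saa3 ranked 11212 by mean FPKM in the first group and 1128 in the second, and Hp ranked 204 and 106.

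**Figure D1:**
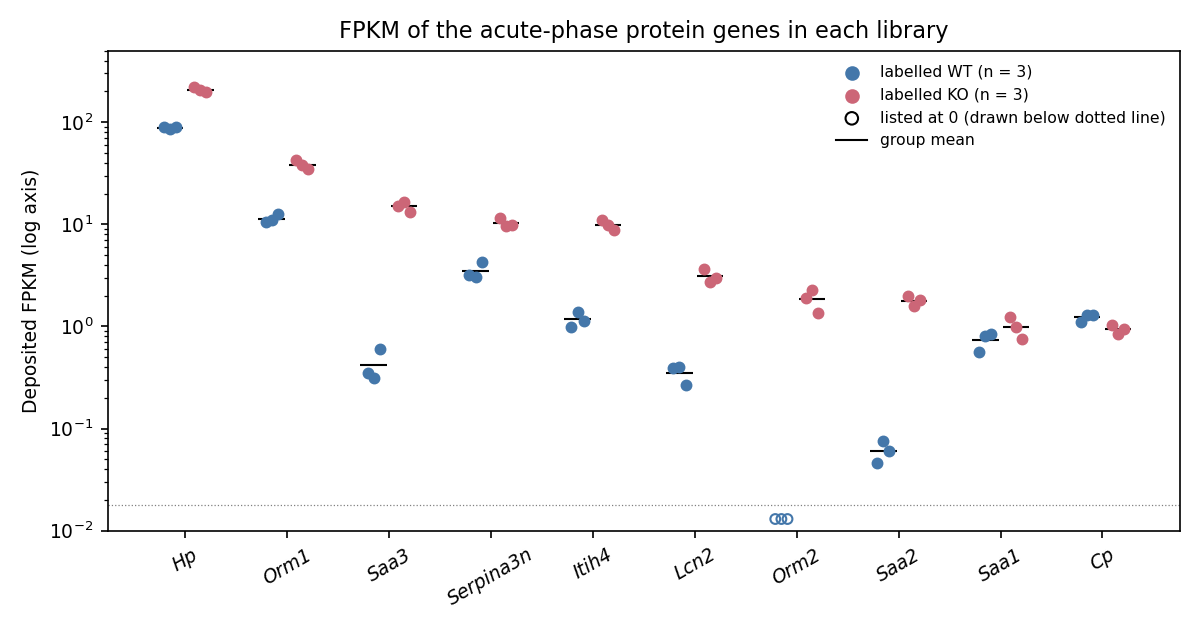
Deposited FPKM of the 10 acute-phase protein genes in each library on a log axis, ordered by the mean of the KO-labelled libraries. Each point is 1 library (3 per group), black lines are group means, and open circles below the dotted line are libraries listed at 0. The groups overlap for Saa1, Cp lies lower in the KO-labelled libraries, and the other 8 genes lie higher there.

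Saa3 had the largest of the fitted differences against a group with counts. It encodes serum amyloid A3, the family member made mainly outside the liver (ENSMUSG00000040026, chromosome 7, 46711998 to 46715700, minus strand, GRCm38). Its FPKM was 0.353, 0.313 and 0.603 in the WT-labelled libraries and 15.1, 16.5 and 13.3 in the KO-labelled ones. The underlying counts were 73, 60 and 109 against 2832, 3340 and 2713. Every KO-labelled library lay above every WT-labelled library, and WT library 3 was the highest of its group. The fitted log2 difference, labelled KO minus labelled WT on TMM-scaled counts, was 5.0 (SE 0.19), or 32.1-fold higher.

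Saa2, which with Saa1 encodes the acute serum amyloid A proteins that circulate on high-density lipoprotein, stood at 10, 15 and 12 counts in the WT-labelled libraries (ENSMUSG00000057465, chromosome 7, 46751790 to 46754313, plus strand). It had 359, 310 and 358 counts in the KO-labelled libraries. The groups were far apart, and no library came near the range of the other group. Mean FPKM was 0.0607 ± 0.0150 (SD, n = 3) and 1.79 ± 0.200 (SD, n = 3), and the log2 difference was 4.58 (SE 0.30), or 24.0-fold higher. The level in the WT-labelled libraries rests on few counts, so the size of this ratio is less certain than its SE shows.

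Saa1 did not share this pattern (ENSMUSG00000074115, chromosome 7, 46740497 to 46742980, minus strand). Its counts were 110, 146 and 146 in the WT-labelled libraries and 221, 189 and 147 in the KO-labelled ones. The groups overlapped: KO library 3 lay below WT libraries 2 and 3 in FPKM, at 0.752 against 0.805 and 0.840. Mean FPKM was 0.734 ± 0.154 (SD, n = 3) and 0.991 ± 0.244 (SD, n = 3). The log2 difference of 0.27 (SE 0.27) was no larger than its error. The relative Saa4, which encodes a constitutive form, had 0, 16 and 20 counts in the WT-labelled libraries and 0 in each KO-labelled library, too few to be tested or for a fold.

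The makeup of the Saa cluster therefore differed between the groups, as the stacked shares by library show. Saa1 took 57.0%, 61.6% and 50.9% of the cluster's counts in the WT-labelled libraries and 6.48%, 4.92% and 4.57% in the KO-labelled ones. Saa3 took 37.8%, 25.3% and 38.0% in the first group and 83.0%, 87.0% and 84.3% in the second. The share of Saa2 was 5.23% ± 1.08 (SD, n = 3) and 9.91% ± 1.61 (SD, n = 3). Saa1 was the leading transcript of the cluster in all 3 WT-labelled libraries and Saa3 in all 3 KO-labelled ones. Reads of the closest copies could be split in counting. The Saa1 and Saa2 transcripts are 94.4% identical, and 74 of the 560 50-base stretches of Saa1 (13.2%) also occur in Saa2, so their separate values are uncertain. Saa3 shares 9 of its 506 stretches (1.78%) with Saa1 and 0 with Saa2.

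**Figure D2:**
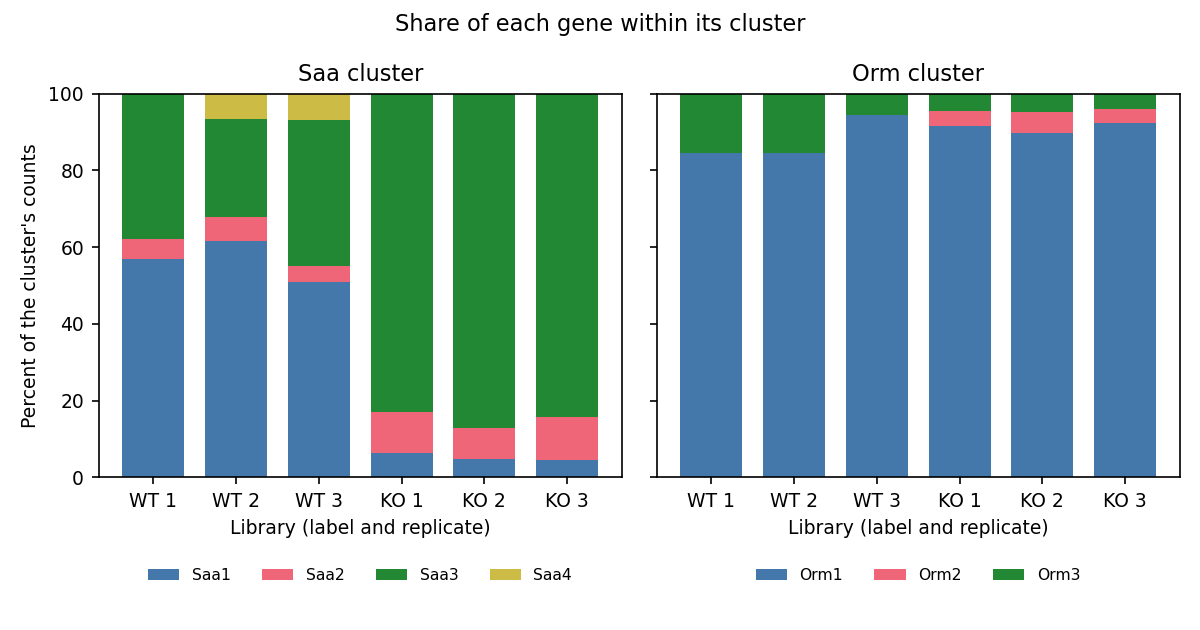
Percent of the counts of the Saa cluster (left) and the Orm cluster (right) taken by each gene, with 1 stacked bar per library. In the Saa cluster the bars turn from mostly Saa1 (50.9% to 61.6%) in the WT-labelled libraries to mostly Saa3 (83.0% to 87.0%) in the KO-labelled ones, and in the Orm cluster Orm2 has counts in the KO-labelled libraries alone.

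Orm1 and Orm2 encode alpha-1-acid glycoproteins, plasma lipocalins that carry lipids and basic drugs. Orm1 (ENSMUSG00000039196, chromosome 4, 63344560 to 63348163, plus strand) had an FPKM of 10.6, 11.1 and 12.5 in the WT-labelled libraries and 42.2, 38.4 and 34.8 in the KO-labelled ones. All KO values lay above all WT values. The log2 difference was 1.61 (SE 0.09), or 3.05-fold higher.

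Orm2 (ENSMUSG00000061540, chromosome 4, 63362449 to 63365878, plus strand) had no count in any WT-labelled library and 106, 138 and 83 counts in the KO-labelled ones. It was the 1 gene of the 10 that had no count in a whole group. Mean FPKM in the KO-labelled libraries was 1.85 ± 0.467 (SD, n = 3). With a floor of 12 counts per library, taken as 3 read pairs, it was at least 7.93-fold higher in the KO-labelled libraries, a bound that covers counting error only. Its relative Orm3 had 118, 115 and 39 counts in the WT-labelled libraries and 114, 127 and 95 in the KO-labelled ones. The Orm3 groups overlapped, WT library 3 stood well below the other WT libraries, and the log2 difference was 0.11 (SE 0.42), or −0.24 without that library.

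Within the Orm cluster, Orm1 held 87.8% ± 5.77 (SD, n = 3) of the counts in the WT-labelled libraries and 91.1% ± 1.31 (SD, n = 3) in the KO-labelled ones. Orm2 held 4.13%, 5.37% and 3.62% in the 3 KO-labelled libraries. The Orm1 and Orm2 transcripts are 91.0% identical and share 148 of 726 50-base stretches (20.4%), so a part of the reads counted for 1 may belong to the other. The part of such sharing in the Orm2 values was not tested.

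Lcn2 encodes lipocalin-2, which binds bacterial siderophores and so withholds iron from bacteria (ENSMUSG00000026822, chromosome 2, 32384633 to 32387797, minus strand). Its counts were 81, 79 and 51 in the WT-labelled libraries and 687, 560 and 609 in the KO-labelled ones. The lowest KO library was well above the highest WT library. Mean FPKM was 0.353 ± 0.0749 (SD, n = 3) and 3.11 ± 0.464 (SD, n = 3), and the log2 difference was 2.94 (SE 0.22), or 7.69-fold higher.

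Hp encodes haptoglobin, which captures free haemoglobin for clearance through CD163 (ENSMUSG00000031722, chromosome 8, 109575128 to 109579172, minus strand). FPKM was 89.9, 85.1 and 88.7 in the WT-labelled libraries and 220.1, 206.8 and 195.1 in the KO-labelled ones. The values within each group were close and the groups were well separated. The log2 difference was 1.09 (SE 0.04), or 2.12-fold higher, with the smallest SE of the 10 genes at the deepest counts (9871 to 25735). Since Hp is so abundant, it set most of the set's summed FPKM: 83.9%, 82.3% and 80.9% in the WT-labelled libraries and 71.1%, 71.4% and 72.4% in the KO-labelled ones. The sum without Hp was 17.2, 18.3 and 20.9 in the first group and 89.6, 82.9 and 74.4 in the second.

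Itih4 and Serpina3n encode plasma proteins linked to protease control. Itih4, inter-alpha-trypsin inhibitor heavy chain 4 (ENSMUSG00000021922, chromosome 14, 30886476 to 30902353, plus strand), had an FPKM of 0.990, 1.39 and 1.14 in the WT-labelled libraries and 10.9, 9.80 and 8.73 in the KO-labelled ones. The groups did not overlap. The log2 difference was 2.90 (SE 0.14), or 7.47-fold higher. Serpina3n, a serine protease inhibitor of the antichymotrypsin family (ENSMUSG00000021091, chromosome 12, 104406729 to 104414329, plus strand), had an FPKM of 3.22, 3.02 and 4.24 against 11.6, 9.72 and 9.75. Again no KO library fell within the WT range, and the log2 difference was 1.42 (SE 0.12), or 2.68-fold higher. Of the 2015 50-base stretches of Serpina3n, at most 2.68% occur in any other Serpina3 gene or pseudogene.

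Cp, the gene of the copper ferroxidase ceruloplasmin (ENSMUSG00000003617, chromosome 3, 19957054 to 20009145, plus strand), was the 1 gene of the set that was lower in the KO-labelled libraries. Its counts were 832, 902 and 870 in the WT-labelled libraries and 709, 634 and 719 in the KO-labelled ones, and its FPKM was 1.10, 1.28 and 1.31 against 1.03, 0.850 and 0.952. The groups did not overlap, but KO library 1 and WT library 1 lay close together in FPKM. The log2 difference was −0.53 (SE 0.12), or 1.45-fold lower. By limma on log2(FPKM + 1) it was −0.20.

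**Figure D3:**
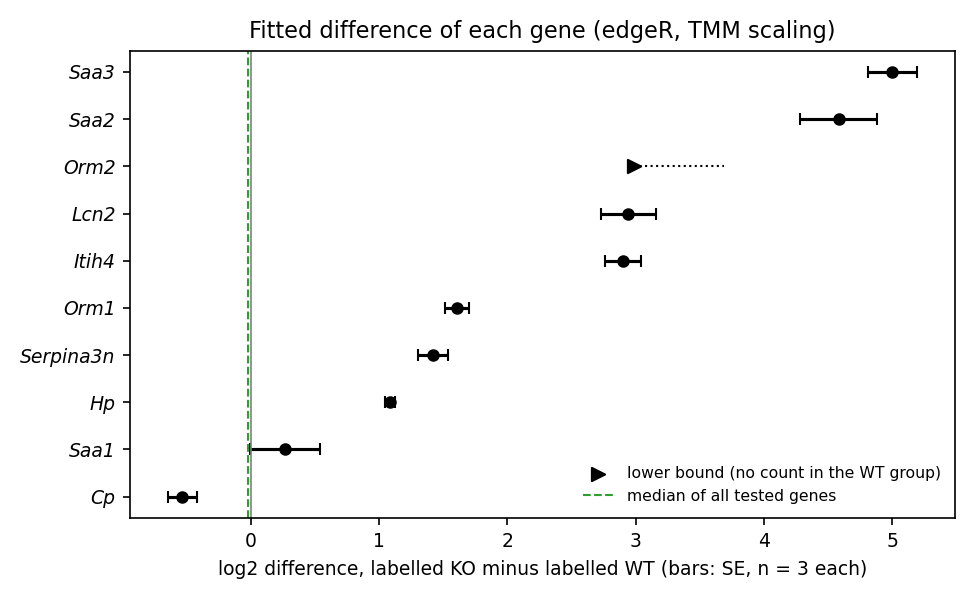
Fitted log2 difference (labelled KO minus labelled WT) of each of the 10 genes from the edgeR model on TMM-scaled counts, with bars of 1 SE (3 libraries per group). Saa3 and Saa2 lie at 5.0 and 4.58, Orm2 is drawn as a lower bound, Cp lies at −0.53, and the dashed line is the median of all tested genes (−0.02).

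All 10 genes were among the 16620 genes with enough counts to be tested. The filter kept Orm2 and Saa2 through their counts in the KO-labelled libraries, so they could be called higher only. Saa2 fell just short of the filter on its WT counts. In the model, 8 of the 10 were called higher in the KO-labelled libraries, 1 was called lower and Saa1 was not called. Of all tested genes, 11.5% were called higher, 10.5% lower and 22% in either direction. Groups did not overlap in scaled counts for 9 of the 10 genes and for 38.6% of all tested genes. The median log2 difference was 2.25 over the 10 genes and −0.02 over all tested genes. Since the set was selected on this contrast, nothing is read from these counts. Of all called genes, 52.1% were higher by edgeR on counts, and 70.9% to 79.5% by limma on log2 FPKM, which differs in test, scaling and unit together. Among the KO-labelled libraries, library 1 held the highest scaled count for 8 of the 10 genes and library 2 for the other two. Scatter within a group was smallest for Hp, with a coefficient of variation of 3.58% and 2.68% of the scaled counts in the WT and KO groups, and reached 31.8% for Saa3 in the WT group and 24.7% for Orm2 in the KO group.

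Other acute-phase genes did not move as one group. Of 24 tested genes from a list of 30, 3 rose, 9 fell and 12 did not pass edgeR's quasi-likelihood test with Benjamini-Hochberg adjustment, and the median log2 difference was −0.78. Those that rose were the metallothioneins Mt1 (log2 1.50, SE 0.07, adjusted p 1.4e-07) and Mt2 (1.32, SE 0.11, adjusted p 1.1e-05), which bind zinc and copper, and Lrg1 (0.72, SE 0.08, adjusted p 9.4e-05), a secreted leucine-rich glycoprotein. Mt1 had an FPKM of 28.1 ± 3.44 in the WT-labelled libraries and 87.9 ± 4.62 in the KO-labelled ones (SD, n = 3 each). The genes that fell included Serpina3k, a neighbour of Serpina3n in the same serpin cluster. Serpina3k had 651, 711 and 676 counts in the WT-labelled libraries and 88, 47 and 95 in the KO-labelled ones, and fell by 3.34 on the log2 scale (SE 0.25, adjusted p 4.8e-06). The fibrinogen beta chain gene Fgb fell by 2.61 (SE 0.36, adjusted p 0.00044) and Serping1, the C1 inhibitor, by 0.79 (SE 0.07, adjusted p 1.3e-05). Hamp and Hamp2, the hepcidin genes, were at 0 in all 6 libraries. Lrg1 and Fgb were named after their values were seen.

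Negative acute-phase genes were lower as well. Of 9 tested genes from a list of 10, 8 fell and 0 rose, with a median log2 difference of −3.08 against −0.02 over all tested genes. The filter kept Apoa1, F12 and Itih1 through their counts in the WT-labelled libraries, so they could be called lower only. These genes were named after their values were seen. Alb, which encodes serum albumin, had 4552, 4235 and 4403 counts in the WT-labelled libraries and 507, 561 and 455 in the KO-labelled ones, and fell by 3.31 on the log2 scale (SE 0.09, adjusted p 5.6e-09 by edgeR's quasi-likelihood test). Ahsg, the fetuin gene, fell by 2.76 (SE 0.27, adjusted p 3.3e-05), and Trf, which encodes the iron carrier transferrin, by 0.29 (SE 0.05, adjusted p 0.0029). The Trf call was lost by limma on FPKM (adjusted p 0.20 to 0.34).

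Hepatocyte markers went in the same direction: 11 of 12 tested genes fell and 0 rose. Of this list, 5 genes also stand in the negative acute-phase list and 3 in the list of other acute-phase genes, so the lists are not separate evidence. The filter kept Apoa1, Apoh and Cyp3a11 through their counts in the WT-labelled libraries, so they could be called lower only. These genes were named after their values were seen. The summed FPKM of the hepatocyte list was 84.9 to 93.0 in the WT-labelled libraries and 43.5 to 45.7 in the KO-labelled ones, and none of its genes was at 0 in a whole group. The widely expressed Cyp2e1, a cytochrome P450, held much of that sum, at 46.4 ± 1.92 and 39.5 ± 0.894 (SD, n = 3 each). The part of such transcripts in the differences of the 10 genes was not tested.

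**Figure D4:**
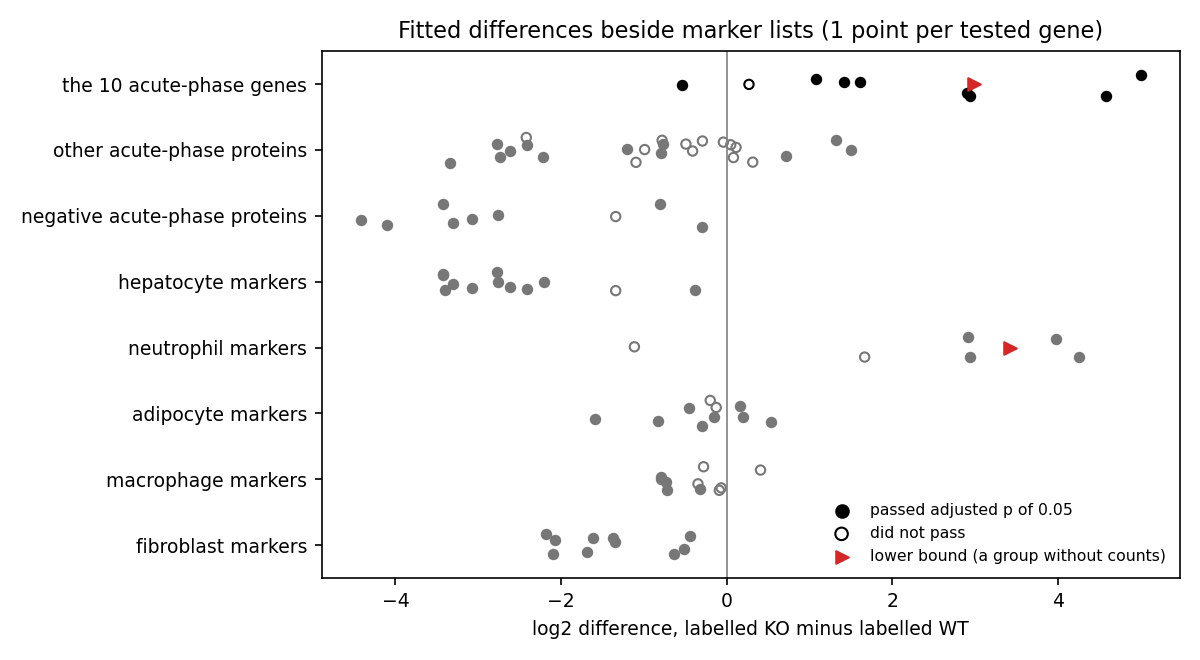
Fitted log2 differences (labelled KO minus labelled WT) of the 10 acute-phase genes and of 7 gene lists, with 1 point per tested gene placed at a random height within its row. Filled points passed an adjusted p of 0.05, open points did not, and triangles are lower bounds. The hepatocyte and negative acute-phase genes lie to the left, and most tested neutrophil markers lie to the right, as do 9 of the 10 genes, while Cp lies to the left.

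Of 12 neutrophil markers, 7 had enough counts to be tested, of which 5 rose and 0 fell. The filter kept Retnlg, Mmp8 and S100a8 through their counts in the KO-labelled libraries, so they could be called higher only. S100a8 had 0, 82 and 14 counts in the WT-labelled libraries and 664, 597 and 523 in the KO-labelled ones. Mmp8, named after its values were seen, had 0, 0 and 3 counts in the WT-labelled libraries and 24, 16 and 33 in the KO-labelled ones. Neutrophils store and secrete several of the same proteins, lipocalin-2 and haptoglobin among them. The summed FPKM of the list was 2.87 to 3.82 in the WT-labelled libraries and 34.4 to 41.2 in the KO-labelled ones, without overlap. S100a9, which encodes a calprotectin subunit, had 125, 77 and 82 counts against 783, 764 and 882, a log2 difference of 2.91 (SE 0.18, adjusted p 1.4e-06 by edgeR's quasi-likelihood test). Csf3r, the receptor for granulocyte colony-stimulating factor, had 50, 51 and 24 counts against 423, 329 and 346, a log2 difference of 2.94 (SE 0.31, adjusted p 6.4e-05). Retnlg, which encodes a resistin-like protein of neutrophils, had 0 counts in the WT-labelled libraries and 203, 154 and 85 in the KO-labelled ones, at least 10.7-fold higher. The granule genes Ngp, Camp and Elane were at 0 in every library, and Mpo had 0, 8 and 0 counts in the WT-labelled libraries and 0 in the KO-labelled ones. Ltf, named after its values were seen, had 16, 0 and 0 counts against 0, 4 and 9, too few to be tested. The 2 tested markers that did not pass, named after their values were seen, were Cxcr2, a chemokine receptor, and Ly6g, a surface marker of mouse neutrophils. Cxcr2 had 8, 0 and 13 counts against 36, 31 and 9 (adjusted p 0.36 by edgeR's quasi-likelihood test), and Ly6g had 25, 0 and 13 against 19, 0 and 0 (log2 difference −1.11, adjusted p 0.70). The part of neutrophil RNA in the differences of the 10 genes was not tested.

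Of 10 tested macrophage markers, 0 were called higher and 5 lower, beside 11.5% and 10.5% of all tested genes. Their summed FPKM was 111.1 to 126.8 in the WT-labelled libraries and 89.8 to 104.5 in the KO-labelled ones. Lyz2, the lysozyme of myeloid cells, fell by 0.79 (SE 0.08, adjusted p 3.4e-05 by edgeR's quasi-likelihood test). Of 10 adipocyte markers 3 rose and 5 fell. Retn, the resistin gene, was higher by 0.53 (SE 0.06, adjusted p 0.00014), and Pparg was lower by 0.83 (SE 0.09, adjusted p 7.2e-05). Adipoq, the adiponectin gene, which was named after its values were seen, had an FPKM of 51.0 ± 0.978 and 51.9 ± 2.41 (SD, n = 3 each). Of 6 brown adipocyte markers 3 rose and 2 fell. Ucp1, the thermogenic uncoupling protein, rose by 0.75 (SE 0.04, adjusted p 9.6e-07). Those that fell were Dio2, by 1.30 (SE 0.12, adjusted p 2.1e-05), and Cox8b, by 0.36 (SE 0.04, adjusted p 0.00012). The summed FPKM of the brown adipocyte list was 747.3 to 848.9 against 824.9 to 925.3.

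Stromal and epithelial markers were lower in the KO-labelled libraries. All 10 fibroblast markers fell, from a summed FPKM of 119.1 to 136.0 to one of 49.8 to 51.0, and Col1a2, a chain of type I collagen, fell by 2.18 (SE 0.07, adjusted p 1.6e-08 by edgeR's quasi-likelihood test). Of 6 smooth muscle markers 5 fell and 0 rose. Of 6 epithelial markers 4 were tested and all of them fell, from a summed FPKM of 4.73 to 6.07 to one of 0.371 to 0.707, with Epcam and Cdh1 at 0 in the KO-labelled libraries. The filter kept Epcam, Cdh1 and Krt8 through their counts in the WT-labelled libraries, so they could be called lower only. Krt8, a keratin of simple epithelia, had 647, 460 and 448 counts against 0, 55 and 22. Of 6 skeletal muscle markers 5 rose and 0 fell, and of 6 endothelial markers 2 rose and 1 fell, with a summed endothelial FPKM of 47.4 to 50.7 against 56.2 to 59.7. The part of these shifts in the values of the 10 genes was not tested.

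The ligands of the IL-6 family gave no call. Of 4 tested genes from a list of 8, 0 passed edgeR's quasi-likelihood test, 0 had an unadjusted p under 0.05, and DESeq2 called 0. Il6 itself had 8, 15 and 2 counts in the WT-labelled libraries and 0 in the KO-labelled ones, too few to be tested. Cntf, ciliary neurotrophic factor, had 0, 0 and 46 counts in the WT-labelled libraries and 77, 85 and 39 in the KO-labelled ones. Its adjusted p was 0.35 with all libraries and 0.0030 without WT library 3, which was the 1 WT library with counts. The filter kept Cntf through its counts in the KO-labelled libraries, so it could be called higher only.

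Of 6 tested receptor genes of the family, 2 rose and 1 fell, beside 11.5% and 10.5% of all tested genes. Osmr, the oncostatin M receptor, had 1097, 1151 and 1163 counts in the WT-labelled libraries and 2203, 2083 and 1942 in the KO-labelled ones. It was higher in every KO library, by 0.67 on the log2 scale (SE 0.10, adjusted p 0.00053 by edgeR's quasi-likelihood test). Lifr, the leukaemia inhibitory factor receptor, rose by 0.46 (SE 0.12, adjusted p 0.023), a call lost without WT library 1, WT library 3 or KO library 3 (adjusted p 0.083, 0.084 and 0.097). Il11ra1, an IL-11 receptor chain, fell by 0.26 (SE 0.06, adjusted p 0.0065), a call lost by limma on FPKM.

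Among 16 tested genes of the JAK, STAT3 and C/EBP step, 1 rose and 3 fell, beside 11.5% and 10.5% of all tested genes. Socs3, the feedback inhibitor that STAT3 induces, had 116, 166 and 182 counts in the WT-labelled libraries and 296, 348 and 349 in the KO-labelled ones. The groups did not overlap, and Socs3 rose by 0.89 (SE 0.23, adjusted p 0.019 by edgeR's quasi-likelihood test), a call lost without WT library 1, KO library 2 or KO library 3 (adjusted p 0.051, 0.063 and 0.067). Stat3, named after its values were seen, had an FPKM of 1.85 ± 0.270 and 2.20 ± 0.250 (SD, n = 3 each) and an adjusted p of 0.58. Cebpa, a C/EBP factor of hepatocytes and adipocytes, fell by 0.70 (SE 0.09, adjusted p 0.00018). The others that fell were Nr3c1, by 0.43 (SE 0.08, adjusted p 0.0028), and Hnf4a (adjusted p 0.019). Hnf4a rested on few counts, 59, 32 and 65 in the WT-labelled libraries against 8, 0 and 4 in the KO-labelled ones. The filter kept Hnf4a through its counts in the WT-labelled libraries, so it could be called lower only.

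In the IL-1, TNF and NF-kB list, 2 of 18 tested genes rose and 1 fell, beside 11.5% and 10.5% of all tested genes. Il1b, which encodes interleukin-1 beta, had 18, 17 and 8 counts in the WT-labelled libraries and 144, 113 and 210 in the KO-labelled ones. The groups were far apart at a low level, and Il1b rose by 3.24 on the log2 scale (SE 0.47, adjusted p 0.00059 by edgeR's quasi-likelihood test). Il1r2, the IL-1 decoy receptor, which neutrophils also express, had 0, 4 and 0 counts against 25, 39 and 46, and an adjusted p of 0.027. That call was lost without each library in turn except WT library 2 (adjusted p 0.069 to 0.11), and with no low-count filter (0.057). With counts divided by 4, Il1r2 had too few counts to be tested. The filter kept Il1r2 and Il1b through their counts in the KO-labelled libraries, so they could be called higher only. Il1rap, the IL-1 receptor accessory chain, had an adjusted p of 0.045 for a lower level. That call was lost without WT library 2 or any 1 KO library (0.067 to 0.22) and with no low-count filter (0.068). It was also lost by limma on FPKM with either pseudocount (0.23 and 0.26). A replicate block ended the Il1r2 and Il1rap calls as well.

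Of 13 tested genes from a list of 17 receptors and partners of the 10 proteins, 0 were called higher and 3 lower. Over all tested genes, 11.5% were called higher and 10.5% lower. P2rx7, an ATP-gated channel reported to respond to serum amyloid A, fell by 1.19 (SE 0.30, adjusted p 0.015 by edgeR's quasi-likelihood test), and Mmp9, the protease that lipocalin-2 binds, fell by 1.46 (SE 0.34, adjusted p 0.010). The P2rx7 call was lost by limma on FPKM with a pseudocount of 1 or 0.1 (adjusted p 0.053 and 0.10), and the Mmp9 call with a pseudocount of 0.1 (adjusted p 0.054). Cd163, the scavenger receptor for haptoglobin bound to haemoglobin, fell by 0.41 (SE 0.11, adjusted p 0.022), a call lost without WT library 1 or KO library 1 (adjusted p 0.090 and 0.089) and by limma on FPKM. Cd36, a scavenger receptor named after its values were seen, had an FPKM of 81.5 ± 3.37 and 98.7 ± 5.0 (SD, n = 3 each). It did not pass by edgeR (adjusted p 0.23) but passed by limma on FPKM (adjusted p 0.011 to 0.034).

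Iron handling genes were compared because lipocalin-2, haptoglobin and ceruloplasmin act on iron. Of 13 tested genes 1 rose and 3 fell, with a median log2 difference of −0.21. Fth1, the ferritin heavy chain, rose by 0.28 (SE 0.04, adjusted p 0.00026 by edgeR's quasi-likelihood test), while Ftl1, the ferritin light chain, fell by 0.45 (SE 0.04, adjusted p 9.4e-06). Their FPKM was 201.4 ± 18.6 and 211.3 ± 11.2 in the WT-labelled libraries and 270.8 ± 13.5 and 171.0 ± 3.11 in the KO-labelled ones (SD, n = 3 each). The lists were chosen with earlier results of these data known, so their counts are descriptions. The shares to set beside them are 11.5% of all tested genes called higher and 10.5% lower.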

How the data were processed

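RNA of 6 libraries was measured as 1 table of 33919 genes. Its whole-number gene counts were deposited by the authors without normalization, and its other values are FPKM per the file headers. Per the submitters' processing notes, HISAT2 2.0, Bowtie 0.12.2 and the build mm8 were used, with no role given. The counting program, the strand setting and the way FPKM was computed were not stated in the sources used here. Coordinates in the table equalled those of GENCODE on GRCm38 for 91.2% of shared genes, so GRCm38 is used.

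Counts were tested with edgeR 4.0.16 in R 4.3.3 (filterByExpr, TMM scaling, two-sided quasi-likelihood test of KO against WT, Benjamini-Hochberg adjustment over 16620 genes, threshold 0.05). Positive log2 differences are higher in the libraries labelled KO. A gene with few or no counts in a group could pass the filter through the other group, and then be called in a single direction only. Scripts were tested on simulated data. Between 33.0% and 34.9% of counts from 1 to 40 were multiples of 4, against 25% if these values were evenly spread. Nominal depth may therefore overstate independent fragments, and the floor for a gene without counts was 12 counts per library. That a read pair adds 4 counts is an assumption, and most of these low counts were not multiples of 4.

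The fit was repeated with DESeq2 1.42.0, in edgeR with DESeq2 size factors, unfiltered, with a replicate block, with counts divided by 4, after removal of mitochondrial genes, by limma 3.58.1 on FPKM with pseudocounts of 1 and 0.1 (also with a mean FPKM of at least 1), and without each library. The 10 genes and the 18 gene lists were chosen with earlier results of these data known. Named genes were the 10 genes, their relatives Saa4 and Orm3, Otud1, and from each list up to 4 genes with the smallest p or with no count in a group, of which not all are described. Others are marked. Figures were drawn with matplotlib 3.10.9.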

Additional observations from a re-analysis of the deposited data

How the results depend on the processing

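The 10 genes were selected on this contrast, so their calls under other settings of the same libraries are a description and support nothing. Limma on log2(FPKM + 1), on log2(FPKM + 0.1) and on log2(FPKM + 1) with a mean FPKM of at least 1 called 0 of the 10 genes lower, against 1 (Cp) by edgeR. The last of these tested fewer genes and called 6 higher. Over all genes the same fits called 754, 806 and 678 lower, against 1751 by edgeR, and 71.2%, 70.9% and 79.5% of calls were then higher, against 52.1%. The median log2 difference of all genes was 0.15 in the last, against −0.02. The cause was not tested. Without each library in turn, 1465 to 1703 genes were called higher and 1411 to 1468 lower.

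Orm3 ran from −0.24 to 0.37 over the left-out libraries, and Adipoq reversed to 0.0255, 0.0260 and 0.0255 in the 3 limma fits, against −0.13. With 3 counts as the floor, Orm2 was at least 31.7-fold higher. Libraries with the same replicate number did not deviate together over all genes (r 0.02, −0.0086 and 0.02). A pairing need not leave such a correlation, so this cannot settle whether the numbers pair them. A fit with a replicate block called 1703 genes higher and 1552 lower, with 8 and 1 of the 10. The block ended the calls of Il1r2 (adjusted p 0.051) and Il1rap (adjusted p 0.10). Depth limits Orm2, which has no count in the WT-labelled libraries, to a bound, and Saa2 there rests on 10 to 15 counts. List counts also moved in the limma fits, in the order given above: 7, 9 and 5 hepatocyte markers were called lower, against 11. Likewise 4, 6 and 4 negative acute-phase genes were called lower, against 8, and 7, 8 and 3 other acute-phase genes, against 9. Adipocyte markers called lower numbered 2 in each, against 5, and macrophage markers 2, 3 and 4, against 5. Neutrophil markers called higher numbered 5, 5 and 3, against 5, and epithelial markers called lower 4, 4 and 1, against 4.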
